A study of Mus musculus with 17 samples.

Results

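CTLA4, CD28, ICOS and their ligands were followed across AB12 tumors as 6 genes, which are the receptors Ctla4, Cd28 and Icos and the ligands Cd80, Cd86 and Icosl. The genes were chosen by symbol and make up 6 of the 55450 genes in the count table. AB12 is a biphasic mesothelioma cell line of BALB/c origin, and the tumors grew in the peritoneum of 8-week-old female BALB/c mice, 1 RNA library per mouse. All groups carried the same injected cells. Untreated tumors were collected on d6 (control_d6, n = 3), d10 (control_d10, n = 5) and d14 (control_d14, n = 3) after injection. Treated mice received intraperitoneal injections of 200 µg of anti-CTLA4 antibody (clone 9D9), with tumors collected on d10 (CTLA4_d10, n = 3) and d14 (CTLA4_d14, n = 3). The d14 treated mice were injected on d6 and d10, while the schedule behind the CTLA4_d10 tumors is not given in the sources used here. These are bulk tumor libraries, so more or fewer cells of a type cannot be told apart from more or less RNA per cell.

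CD28 is the main costimulatory receptor of T cells and is present on resting cells, where binding of CD80 or CD86 on antigen-presenting cells strengthens the signal of the T cell receptor. CTLA4 is its inhibitory relative. It binds the same ligands more tightly, is abundant in regulatory T cells, and removes CD80 and CD86 from the cells that carry them. ICOS is induced upon activation and has a ligand of its own, ICOSL, on B cells, myeloid cells and some non-hematopoietic cells.

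The receptors lie side by side on mouse chromosome 1 (GRCm38), all on the plus strand. Cd28 (ENSMUSG00000026012.2) occupies chr1:60716800-60773359, Ctla4 (ENSMUSG00000026011.13) occupies chr1:60887000-60915832 and Icos (ENSMUSG00000026009.14) occupies chr1:60977927-61000320, so that all 3 fall within 283521 bases. Cd86 (ENSMUSG00000022901.13, chr16:36603869-36666081, minus strand) and Cd80 (ENSMUSG00000075122.5, chr16:38455561-38496335, plus strand) share chromosome 16, and Icosl (ENSMUSG00000000732.9) lies at chr10:78069302-78083913 on the plus strand. The receptors share a run of 3 proline codons in the loop that contacts the ligand, and this stretch is shown because its flanks separate the CD80/CD86-binding receptors from ICOS. The 30 bases below, from the Gencode vM21 transcripts, are in coding exon 2 of each gene, with the proline codons in capitals.
Ctla4: ctcatgtacCCACCGCCAtactttgtgggc
Cd28: ttcatgtacCCTCCGCCTtacctagacaac
Icos: atttttgacCCACCTCCTtttcaagaaagg
Their positions are chr1:60912710-60912739 for Ctla4, chr1:60763272-60763301 for Cd28 and chr1:60993980-60994009 for Icos. Ctla4 and Cd28 share the 8 bases before the run and the 3 bases after it, whereas Icos shares 2 and 1 with either.

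The libraries held 46371577 to 96759833 counts in genes. Levels are given as library-scaled counts (normalized CPM, after TMM scaling), and per kilobase of exon where genes are compared with each other. By the counts of 278 pseudogenes and small RNA genes, and divided into 3, the libraries fell into sets that cross the groups. The first held control_d6 and control_d10 replicates 1 to 3, the second control_d10 replicates 4 and 5 and all CTLA4_d10 libraries, and the third all d14 libraries, treated or not. Divided into 2, the latter sets (control_d10 replicates 4 and 5, CTLA4_d10 and d14) were joined. CTLA4_d14 against control_d14 and d6 against d10 replicates 1 to 3 thus lie within a set in both divisions, whereas d10 replicates 4 and 5, or CTLA4_d10, against d14 lie within a set only in the division into 2. In the division into 3, d14 cannot be told apart from its set. The d6 and d14 tumors lie in different sets in both divisions, so day and set cannot be told apart between them. Markers of mesothelium (Msln, Wt1, Upk3b, Krt8, Krt18 and Krt19) summed to 1852 to 4032 normalized CPM, and all libraries held T cell (109 to 403) and macrophage (778 to 2484) markers.

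Ctla4, the target of the antibody, was practically not counted in any tumor. Whether its row holds all reads of the gene could not be checked from the counts, so its values, the floor and the folds against it describe the deposited row and not necessarily the transcript. Counts were 0, 0 and 0 in control_d6, 0, 2, 1, 0 and 0 in control_d10, 2, 0 and 1 in control_d14, 1, 0 and 0 in CTLA4_d10, and 0, 2 and 0 in CTLA4_d14. This sums to 9 of 1221628991 counts over the 17 libraries, and no library passed 3 counts, the number that a count of 0 allows. That floor corresponds to 0.0296 to 0.0667 normalized CPM, and covers counting error only.

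Per kilobase and set against the Ctla4 floor of the same library, Cd28 was at least 34.5-fold to at least 243-fold higher, and Icos at least 50.0-fold to at least 484-fold higher. No fold between groups can be given for Ctla4. The filter on low counts left it out of every comparison, and where all genes with a count were tested instead it was called in none. In the same libraries, none of the 39 genes in the T cell, regulatory T cell and signaling lists stayed at or under 3 counts in all libraries, and the lowest total among them was 1488. Among all protein-coding genes, 5348 of 21951 (24.4%) did so.

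As to its sequence, of 2327 Ctla4 transcript windows of 75 bases, the shorter read length used, 0 occurred in a transcript of another gene. A ribosomal protein pseudogene, Rpl18-ps1, sits in a Ctla4 intron without touching its exons, and was counted 6 to 95 times per library. Why Ctla4 was close to 0 in tumors with regulatory T cell markers was not tested, and its level says nothing on CTLA4 protein.

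Cd28 was detected in all tumors, with 272 to 1914 counts. Its level was 6.16, 5.79 and 5.51 normalized CPM in control_d6, and 12.5, 15.4, 14.1, 14.7 and 12.5 in control_d10. In control_d14 it was 9.49, 5.82 and 12.9. The d10 libraries were all above the d6 libraries, and the d14 libraries spread from the d6 level to the d10 level. In treated tumors, Cd28 stood at 16.4, 11.8 and 13.7 on d10, within or close to the untreated range, and at 18.9, 19.3 and 16.4 on d14, above all 3 untreated d14 tumors.

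Icos followed a similar course with a wider range. Its level was 5.83, 4.45 and 5.25 normalized CPM in control_d6, 11.0, 15.1, 9.71, 10.9 and 8.76 in control_d10, and 8.07, 5.17 and 9.25 in control_d14. It was 15.5, 9.76 and 12.3 in CTLA4_d10, and 21.1, 21.4 and 18.9 in CTLA4_d14. All 3 treated d14 tumors exceeded all 14 other tumors for Icos. The macrophage marker Csf1r did the same by a narrow margin (at least 354.8 against at most 354.3 normalized CPM). The share of all genes that do so was not counted. Ordered by group mean, both receptors ran from CTLA4_d14 (18.2 ± 1.60 for Cd28 and 20.4 ± 1.37 for Icos, SD, n = 3) through CTLA4_d10, control_d10 and control_d14 to control_d6. Of the neighbors in that order, CTLA4_d14 and CTLA4_d10 did not overlap for Icos, and all other neighboring groups overlapped for both genes.

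**Figure D1:**
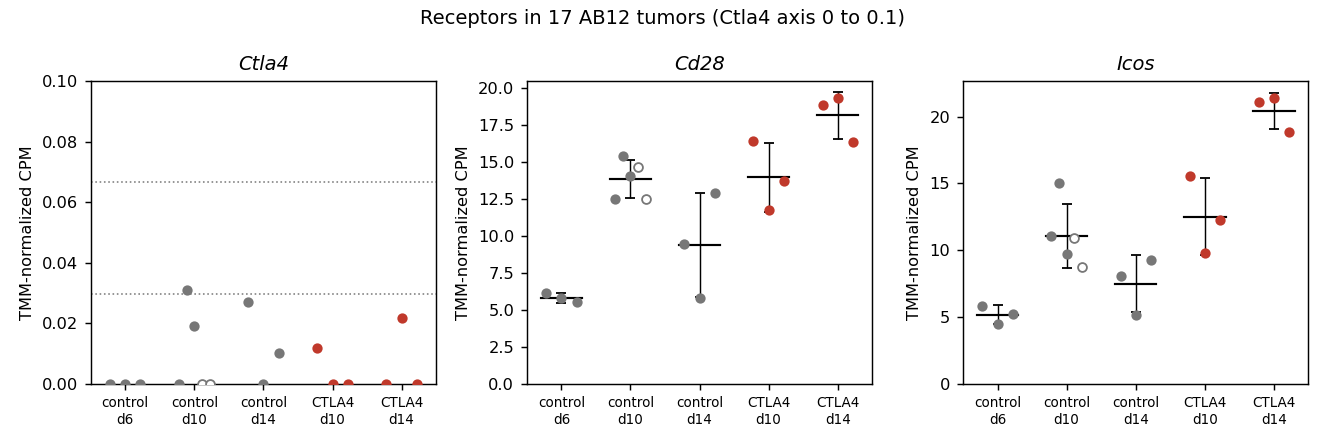
Normalized CPM of the receptors in each of 17 tumors (1 point per library), by group, with red for anti-CTLA4 and open circles for control_d10 replicates 4 and 5; lines and bars are mean ± SD for Cd28 and Icos. Ctla4, on an axis of 0 to 0.1 with the lowest and highest library floors of 0.0296 and 0.0667 as dotted lines, stays at 2 counts or fewer in each library, while Icos in CTLA4_d14 stands above all other tumors.

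The ligands moved less. Cd80, found on activated antigen-presenting cells, kept within 21.6 to 36.5 normalized CPM across the 17 libraries, a 1.69-fold range. It was 27.5, 25.8 and 36.5 in control_d6, 26.9, 29.4, 30.6, 27.4 and 21.6 in control_d10, and 26.7, 31.2 and 28.4 in control_d14. In treated tumors it was 32.3, 33.6 and 28.0 on d10, and 28.1, 26.0 and 30.5 on d14. All 5 groups overlapped.

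Cd86, which antigen-presenting cells carry also without activation, ranged from 18.8 to 40.7 normalized CPM. It was 29.8, 28.6 and 33.7 in control_d6, 29.6, 39.4, 29.2, 30.3 and 21.5 in control_d10, and 25.6, 18.8 and 32.6 in control_d14. Treated tumors held 26.3, 22.7 and 21.6 on d10, and 32.1, 40.7 and 30.4 on d14, with no overlap between these groups.

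Icosl was the least abundant ligand, at 8.62 to 16.9 normalized CPM. It was 9.23, 8.97 and 9.70 in control_d6, 8.66, 8.90, 8.62, 16.9 and 10.8 in control_d10, 10.4, 10.5 and 15.4 in control_d14, 11.1, 11.2 and 10.6 in CTLA4_d10, and 12.4, 13.0 and 12.6 in CTLA4_d14. A pair of untreated tumors stood apart, namely control_d10 replicate 4 and control_d14 replicate 3. The same tumors had the highest summed level of the 7 B cell markers in their groups, at 207 normalized CPM against 55.1 to 74.0 in the other control_d10 tumors and at 101 against 52.7 and 61.0 in the other control_d14 tumors, and the part of B cells in the Icosl level was not tested. Control_d10 replicates 4 and 5 exceeded replicates 1 to 3 for Icosl by 0.66 ± 0.20 (log2, SE, adjusted p = 0.0463, edgeR), while the other tested members did not pass between these sets. Between these replicates of 1 label, 1366 of 17321 tested genes had an adjusted p below 0.05 and a log2 fold change beyond 1. Icosl was under that fold threshold.

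**Figure D2:**
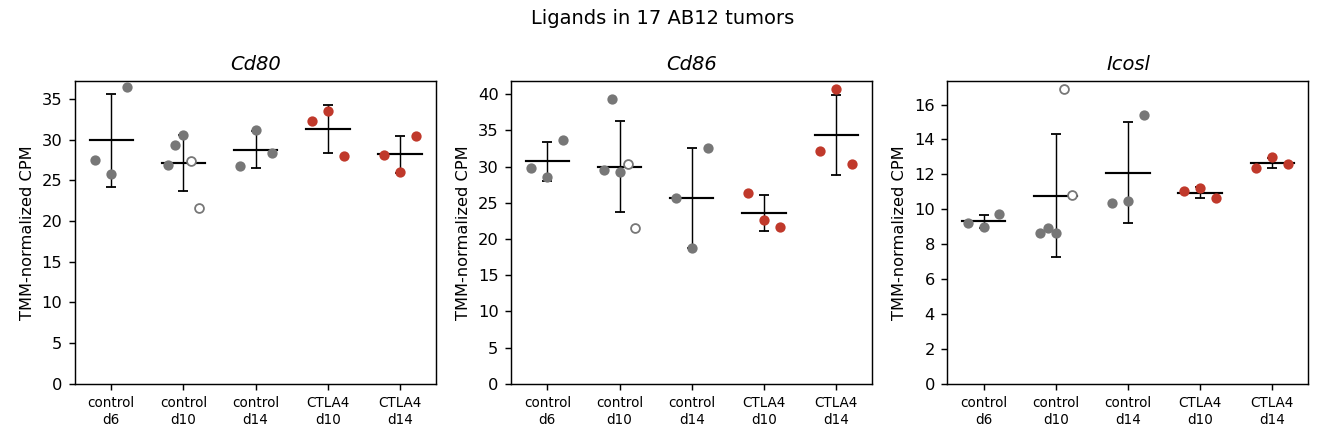
Normalized CPM of the ligands in each of 17 tumors, by group, with red for anti-CTLA4, open circles for control_d10 replicates 4 and 5, and lines and bars for mean ± SD. Cd80 stays between 21.6 and 36.5 in all groups, and the high Icosl point in control_d10 is replicate 4, at 16.9.

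Per kilobase of exon, Cd80 and Cd86 were the most abundant members, with means over all tumors of 7.79 and 7.92 normalized CPM per kilobase. They were followed by Icos (3.30), Icosl (2.40) and Cd28 (2.03). Over all tumors the ligands ranged 1.69-fold (Cd80), 2.16-fold (Cd86) and 1.96-fold (Icosl), against 3.51-fold for Cd28 and 4.79-fold for Icos. Both genes enter the ratio of ligand to receptor, which is given as a description of levels. Cd80 was 8.57 ± 2.06 times Cd28 per kilobase in control_d6 and 3.25 ± 0.32 times in control_d10 (SD, n = 3 and 5), and 5.73 ± 2.77 times in control_d14 compared with 2.59 ± 0.44 times in CTLA4_d14 (n = 3 each). Icosl was 1.35 ± 0.16 times Icos in control_d6 and 0.46 ± 0.03 times in CTLA4_d14. Icos was 1.42 to 1.59 times Cd28 on average in the other 4 groups, and 2.01 ± 0.04 times in CTLA4_d14.

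To determine how the members changed as untreated tumors grew, groups were compared with edgeR's quasi-likelihood test across all genes, with Benjamini-Hochberg adjustment. A gene was called when the adjusted p was below 0.05 and the log2 fold change beyond 1 in either direction. The filter on low counts kept 5 of the 6 members in every comparison, Ctla4 being the one left out. Between d6 and d10, Cd28 rose by 1.27 ± 0.13 (log2 fold change ± SE, adjusted p = 0.000378) and Icos by 1.12 ± 0.19 (adjusted p = 0.00449). Hence 2 of 5 tested members were called, while 7.45% of all tested genes were. Cd80 (-0.12 ± 0.15, adjusted p = 0.62), Cd86 (-0.01 ± 0.17, adjusted p = 0.971) and Icosl (0.24 ± 0.23, adjusted p = 0.504) were not called.

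Within the library set that holds both days, d6 against control_d10 replicates 1 to 3, the rises were 1.29 ± 0.13 for Cd28 and 1.23 ± 0.19 for Icos. The Icos call was lost, at 0.94, with control_d10 replicates 4 and 5 alone, and at 0.98 without control_d10 replicate 2.

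From d10 to d14, no member was called (0 of 5, against 7.23% of all tested genes). The values were -0.57 ± 0.22 for Cd28 (adjusted p = 0.0965) and -0.57 ± 0.22 for Icos (adjusted p = 0.0983). Unadjusted, both had p below 0.05, and DESeq2 also called 0 members. In the fit of all 5 groups the adjusted p was 0.0302 for Cd28 and 0.0405 for Icos, under the fold threshold. The Cd28 value was -0.32 without control_d14 replicate 2 and -0.85 without replicate 3 (adjusted p = 0.0376), and that of Icos was -0.36 without replicate 2. Against control_d10 replicates 4 and 5 alone, which share a set with d14 in the division into 2, the values were -0.55 ± 0.30 for Cd28 and -0.41 ± 0.26 for Icos. Control_d14 and control_d6 also differed in no called member (0 of 5, against 19% of all tested genes). DESeq2 called 0 there, and 3 members had an unadjusted p below 0.05. Cd28 was 0.71 ± 0.26 higher with an adjusted p of 0.0437 but under the fold threshold. It was 0.43 (adjusted p = 0.123) without control_d14 replicate 3, and the adjusted p was also above 0.05 without any of the other single tumors but control_d14 replicate 2 (0.96). The comparisons between days share groups, so they are not independent. Between d6 and d14, day and library set cannot be told apart in either division.

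To determine what went with anti-CTLA4, CTLA4_d14 tumors were first compared with control_d14 tumors. Icos rose by 1.48 ± 0.20 (adjusted p = 0.00508), and was the only member called (1 of 5, against 11.5% of all tested genes). Cd28 was 0.98 ± 0.26 higher (adjusted p = 0.0241), just under the fold threshold, and was called under 4 alternatives, among them without control_d14 replicate 3 (1.31), while its adjusted p rose to between 0.0734 and 0.0759 without control_d14 replicate 1, CTLA4_d14 replicate 1 or CTLA4_d14 replicate 2. For the ligands, the log2 fold changes were 0.00 ± 0.08 for Cd80, 0.45 ± 0.20 for Cd86 (adjusted p = 0.116) and 0.10 ± 0.16 for Icosl. Markers of several cell types moved with the receptors in this comparison. The summed T cell markers were 309 to 369 normalized CPM in CTLA4_d14 and 116 to 183 in control_d14, and the macrophage markers 1703 to 2082 and 778 to 1094, respectively. Dendritic cell markers summed to 101 to 110 and 64.1 to 85.6, and regulatory T cell markers to 77.4 to 89.6 and 30.9 to 38.9. The summed mesothelium markers were lower, at 1852 to 2081 in CTLA4_d14 and 2755 to 2827 in control_d14. Gene by gene, 1 of these 6 markers was called higher and 0 lower, with a median log2 fold change of -0.37. The part of T cells in the receptor levels was addressed only by the ratios given further on, and that of the other cell types was not tested.

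Relative to control_d10, CTLA4_d14 tumors had 0 of 5 members called (7.83% of all tested genes). Icos was 0.84 ± 0.16 higher (adjusted p = 0.0062) and Cd28 0.35 ± 0.11 higher (adjusted p = 0.0456), both under the fold threshold. Against control_d10 replicates 4 and 5 alone, Icos was called, at 1.03. Icos and Cd28 both had an unadjusted p below 0.05, and DESeq2 called 0 members. These groups differ in both treatment and day, which cannot be told apart here. Library set differed too, except for control_d10 replicates 4 and 5 in the division into 2.

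On d10, treated and untreated tumors differed in no member (0 of 5, against 0.0174% of all tested genes, or 3 genes of 17258). Cd28 differed by 0.01 ± 0.13, Icos by 0.17 ± 0.20, Cd80 by 0.21 ± 0.13, Cd86 by -0.35 ± 0.17 and Icosl by 0.02 ± 0.22, and the unadjusted p was above 0.05 for each. DESeq2 also called 0 members, and 223 genes in all. Within the library set shared by CTLA4_d10 and control_d10 replicates 4 and 5, the values were 0.03 ± 0.16 for Cd28, 0.34 ± 0.20 for Icos, 0.35 ± 0.13 for Cd80, -0.15 ± 0.16 for Cd86 and -0.35 ± 0.18 for Icosl.

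Between treated tumors of d14 and d10, again 0 of 5 members were called, compared with 11.5% of all tested genes. Icos (0.72 ± 0.15, adjusted p = 0.00442), Cd86 (0.56 ± 0.12, adjusted p = 0.00539) and Cd28 (0.39 ± 0.13, adjusted p = 0.0289) passed the adjusted p but not the fold threshold. With Icosl, 4 members had an unadjusted p below 0.05, and DESeq2 called 0. Day and library set cannot be told apart in this comparison.

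The treatment effect on d14 was then set against that on d10 in a single fit with an interaction term. The effect on Icos was 1.29 ± 0.31 larger on d14 (log2, adjusted p = 0.0125), and Icos was the only member called (1 of 5, against 11.8% of all tested genes). For Cd28, the difference was 0.96 ± 0.29 (adjusted p = 0.0365), under the fold threshold. Cd86 (0.79 ± 0.28, adjusted p = 0.0656), Cd80 (-0.22 ± 0.17) and Icosl (0.06 ± 0.31) did not pass. Both treatment comparisons enter this term, so it is not independent of them.

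**Figure D3:**
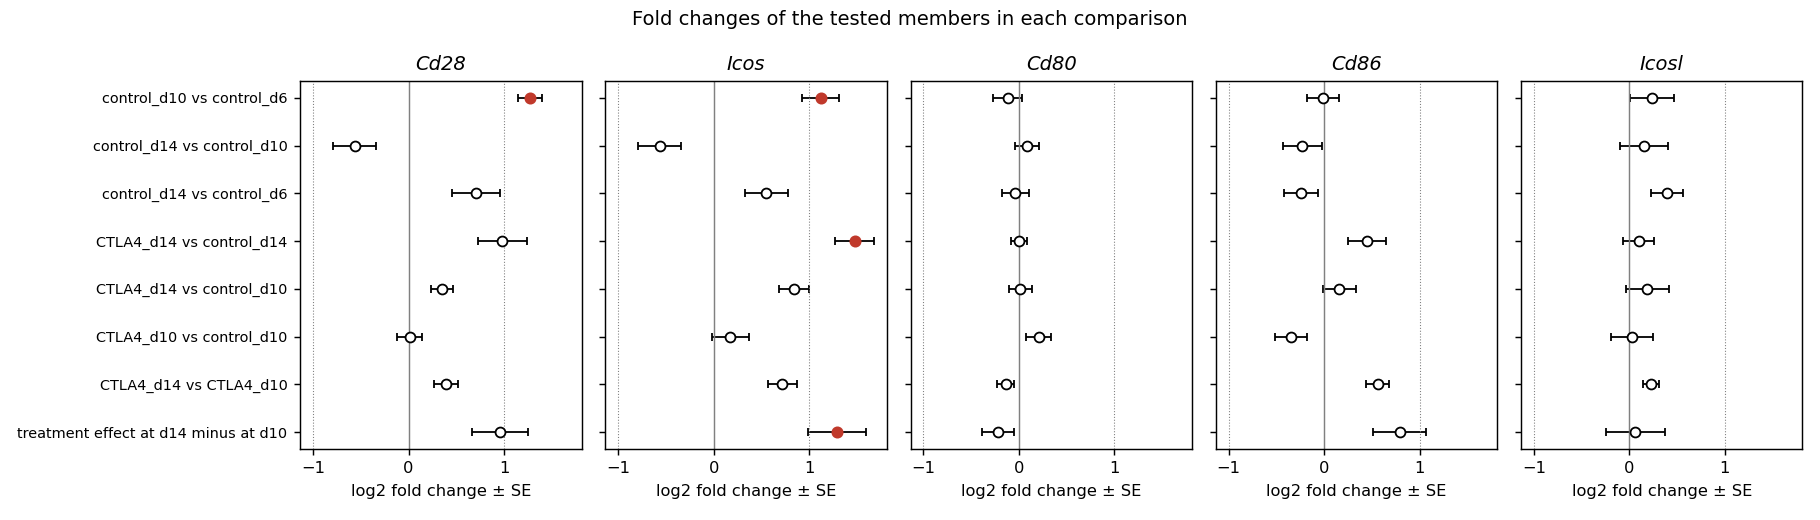
Log2 fold change ± SE (edgeR) of the 5 tested members (columns) in each comparison (rows); red points were called, open points were not, and dotted lines mark a log2 fold change of 1 in either direction. Red points occur for Cd28 and Icos between d6 and d10, and for Icos in both terms that involve treated and untreated d14 tumors, while the ligands lie within 0.79 of 0.

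To separate the receptors from T cell content, counts were divided within each library by those of Cd3e, a subunit of the T cell receptor complex, and ligand counts by those of Csf1r, the receptor of macrophage growth factors. Ratios need no scaling between libraries. Across the 3 untreated days, Cd28/Cd3e differed in an exact permutation test of F over all 9240 arrangements of the 11 tumors (p = 0.000433, adjusted over 6 ratios p = 0.0026). The mean log2 ratio was -1.23 ± 0.14 on d6, -2.06 ± 0.14 on d10 and -1.67 ± 0.20 on d14 (SD, n = 3, 5 and 3). Put as counts, Cd28 held 0.454, 0.451 and 0.381 per Cd3e count on d6, and 0.219, 0.272, 0.262, 0.233 and 0.222 on d10. Thus the d10 tumors had more Cd28 than d6 tumors overall and less per Cd3e, without overlap in either measure.

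Icos/Cd3e showed the same order (-1.40 ± 0.16, -2.40 ± 0.29 and -1.96 ± 0.07, exact permutation p = 0.0013, adjusted p = 0.0039). Cd3e itself rose by 2.10 ± 0.10 between d6 and d10, more than either receptor. The difference across days passed for both ratios also with the summed 8 T cell markers as the denominator (adjusted p = 0.0026 for Cd28 and 0.00357 for Icos, exact permutation test) and with control_d10 replicates 1 to 3 or 4 and 5 alone. With the summed markers d10 minus d6 was smaller, at -0.44 rather than -0.83 for Cd28 and -0.60 rather than -0.99 for Icos, and the d14 ratios were near those of d6, at -4.12 and -4.27 for Cd28. Icos/Cd28 did not pass across days (adjusted p = 0.506, exact permutation test).

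In treated d14 tumors, Cd28 kept pace with Cd3e. The log2 ratio was -1.63 ± 0.14 in CTLA4_d14 and -1.67 ± 0.20 in control_d14 (exact permutation p = 0.8, n = 3 and 3). Icos/Cd3e was -1.46 ± 0.11 in CTLA4_d14 and -1.96 ± 0.07 in control_d14, with 0.374, 0.384 and 0.333 Icos counts per Cd3e count against 0.270, 0.243 and 0.257. With the summed T cell markers as the denominator, the difference was -0.13 rather than 0.04 for Cd28 and 0.34 rather than 0.50 for Icos. Icos/Cd28 was 1.12, 1.11 and 1.15 in CTLA4_d14 counts, and below 1 in each of the other 14 tumors. These groups did not overlap, but 3 tumors against 3 cannot go below an exact p of 0.1. Over all 42 tests of ratios between groups, 0 passed after adjustment (smallest adjusted p = 0.15, exact permutation tests), and 8 had an unadjusted p below 0.05. As 3 against 5 tumors cannot go below an exact p of 0.0179, a difference in only a few ratios could not have passed.

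Among the ligands, Cd80/Csf1r was -3.92 ± 0.36 in CTLA4_d14 and -2.37 ± 0.64 in control_d14, and Cd86/Csf1r was -3.64 ± 0.12 and -2.57 ± 0.17. Both pairs of groups were without overlap, at the smallest exact p of 0.1. With the summed macrophage markers as the denominator, the difference was -1.05 rather than -1.55 for Cd80 and -0.58 rather than -1.07 for Cd86. Csf1r rose by 1.50 ± 0.26 (adjusted p = 0.00778, edgeR) in this comparison while the ligand levels were not called. Across untreated days neither ratio passed (adjusted p = 0.0857 for Cd80/Csf1r and 0.0628 for Cd86/Csf1r, exact permutation test), but both passed with the 9 summed macrophage markers as the denominator (0.00303 and 0.0026), and without control_d10 replicate 3 or control_d14 replicate 3. Cd86/Cd80 was lower in all CTLA4_d10 tumors (0.814, 0.676 and 0.771) than in all control_d10 tumors (0.956 to 1.34), at an exact permutation p of 0.0179, the smallest that 3 against 5 allows (adjusted p = 0.15).

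**Figure D4:**
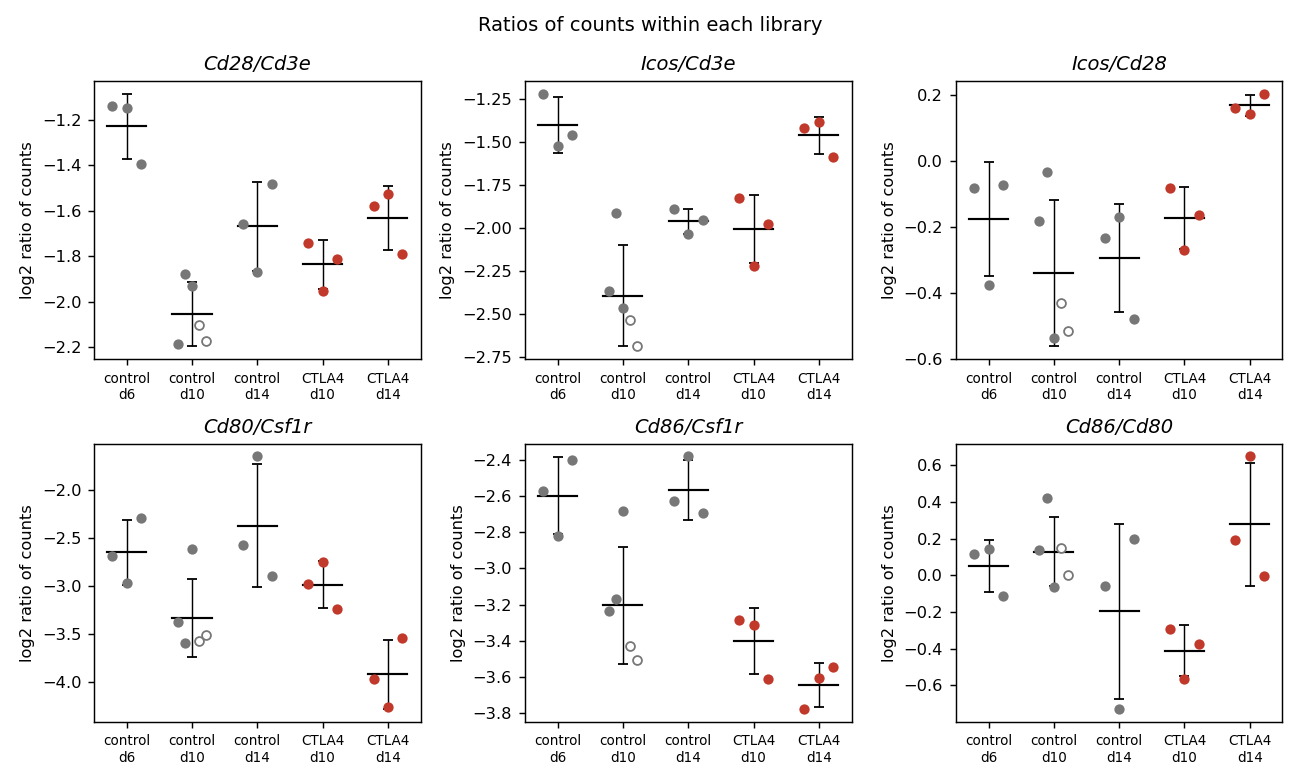
Log2 ratio of counts within each library for 6 pairs of genes, by group, with red for anti-CTLA4, open circles for control_d10 replicates 4 and 5, and lines and bars for mean ± SD. Cd28/Cd3e and Icos/Cd3e are highest in control_d6 among untreated tumors, and Icos/Cd28 exceeds 0 only in the CTLA4_d14 tumors.

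Other genes of the pathway were followed as lists, to be read against the share of all tested genes called, which was 7.45% between d6 and d10, 7.23% between d10 and d14, 19% between d6 and d14, and 11.5% between CTLA4_d14 and control_d14. Of 21 genes that carry the CD28 and ICOS signal inside T cells, 5 rose and 0 fell between d6 and d10, with a median log2 fold change of 0.30 against 0.03 over all tested genes. Among them were the adaptor Grap2 (1.85 ± 0.21) and the kinase Zap70 (1.70 ± 0.19). From d10 to d14, 5 fell and 0 rose (median -0.53 against -0.04), including the adaptor Lat (-1.53 ± 0.22) and the kinase Lck (-1.21 ± 0.21). In CTLA4_d14 against control_d14, 8 rose and 0 fell (median 0.86 against 0.00), including Grap2 (1.27 ± 0.26). None was called between CTLA4_d10 and control_d10, where the background was also close to none.

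Of 15 genes known to be induced by CD28 or ICOS, 1 rose and 2 fell between d6 and d10. The costimulatory receptor Tnfrsf9 rose by 1.19 ± 0.21, whereas the cytokines Il21 (-2.02 ± 0.46) and Il4 (-1.86 ± 0.33) fell. By d14, 8 were lower than on d6 and 0 higher (median -1.14 against 0.01), with Il4 (-3.97 ± 0.36) and Il2 (-3.90 ± 0.58), the T cell growth factor, changing most. Day and library set cannot be told apart between d6 and d14. In CTLA4_d14 against control_d14, 6 of 13 tested genes rose and 0 fell (median 0.72 against 0.00). These included Il21 (2.34 ± 0.53), a cytokine of follicular helper T cells, and Cd40lg (2.32 ± 0.56), which activates B cells and dendritic cells. Several of these genes were sparse, with 206 counts over all 17 libraries for Il4, 250 for Il21, 257 for Il2 and 411 for Cd40lg.

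Of 7 genes for CTLA-4 trafficking, 1 rose in CTLA4_d14 against control_d14, a share near that of all tested genes, and the list median was 0.01 against 0.00. It was Trat1 (1.92 ± 0.52, 555 counts over all libraries), which carries CTLA4 to the T cell surface. Between untreated d6 and d14 tumors, which also differ in library set, the list median was -0.46 against 0.01, with 1 gene lower. Trat1 also differed between treated d14 and treated d10 tumors (1.97 ± 0.31), as the only 1 of the 7 called, against 11.5% of all tested genes. Day and library set cannot be told apart in that comparison. Of 3 genes that set CD86 at the cell surface, March1, a ubiquitin ligase that lowers it, rose in CTLA4_d14 against control_d14 (1.34 ± 0.21), while Cd86 itself was not called. In the treatment term, 2 of these 3 genes were called, with a median of 1.42 against -0.02 and 11.8% of all tested genes called. Cd83, which opposes March1, fell between d6 and d14 (-1.04 ± 0.19), where library set differed too.

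Of 7 other members of the CD28 and B7 families, 1 rose between d6 and d10, against 7.45% of all tested genes. This was Pdcd1, which encodes the inhibitory receptor PD-1 (3.15 ± 0.28), by a larger value than Cd28 or Icos. In CTLA4_d14 against control_d14, 2 rose, the PD-1 ligand Pdcd1lg2 (1.62 ± 0.29) and the inhibitory B7 relative Vsir (1.30 ± 0.24). Both had fallen from d10 to d14 without treatment (-1.74 ± 0.30 and -1.01 ± 0.22).

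Among 7 regulatory T cell markers, the group of cells in which Ctla4 is best known, 4 rose in CTLA4_d14 against control_d14 and 0 fell (median 1.25 against 0.00). Il2ra, part of the IL-2 receptor, rose by 1.51 ± 0.12. Foxp3, the defining transcription factor, was 5.28 to 6.21 normalized CPM in control_d6, 1.46 to 3.28 in control_d10, 0.875 to 1.86 in control_d14, 0.227 to 0.507 in CTLA4_d10 and 2.34 to 3.26 in CTLA4_d14. It fell by 1.27 ± 0.27 (log2) between d6 and d10 and was the only one of the 7 markers called there, with 0 higher and a list median of 0.27 against 0.03. Between CTLA4_d10 and control_d10 none of the 7 was called (median 0.00 against -0.01). Foxp3 was -2.60 ± 0.39 there (adjusted p = 0.0745), while the summed markers were 57.3 to 84.3 normalized CPM in CTLA4_d10 and 53.5 to 67.8 in control_d10.

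Over the 17 libraries, the genes with the profile most like that of Cd28 were Fasl (Pearson r = 0.975), the ligand of the death receptor Fas, Rab11fip4 (0.972) and Gpr174 (0.971), out of 12374 protein-coding genes. For Icos, these were Tbc1d9 (0.976), Nlrp3 (0.970), the sensor of an inflammasome, and Slc7a11 (0.968), a cystine transporter. Cd28 and Icos correlated with each other at 0.946. Cd28 correlated with Cd3e at 0.938 and with Csf1r at 0.805, whereas Icos correlated about equally with Cd3e (0.838) and Csf1r (0.856).

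The ligands had less close companions. The highest values were 0.682 for Cd80 (Clec2d), 0.872 for Cd86 (Htr7) and 0.886 for Icosl (Chst3), the last with a Spearman rho of 0.657. Cd80 and Cd86 were almost unrelated to each other (r = 0.05). These coefficients describe libraries that share groups and library sets, and they carry no test.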

How the data were processed

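Per the labels and the study's methods, total RNA of 17 peritoneal AB12 tumors was made into KAPA RNA HyperPrep libraries, sequenced as 75- or 100-base reads and aligned to GRCm38/mm10 with TopHat2 (2.0.14), and the authors deposited raw HTSeq counts of uniquely mapped reads per Gencode vM21 gene; use of strand is not given in the sources used here. In the paper, each read length belonged to its own sequencing instrument, and genes with a significant batch effect between sequencing projects were removed. No such removal was made here, so the shares of called genes can include them. Each column was matched to its sample by the deposited names, and 0 columns were left over. The libraries held 46371577 to 96759833 counts.

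Genes were filtered (filterByExpr), TMM-scaled and tested with edgeR 4.0.16 (glmQLFit, glmQLFTest) on the 2 groups compared, or on 4 groups for the treatment term, with Benjamini-Hochberg adjustment over all tested genes. The scripts were tested on simulated data. Ratios were log2 of counts plus 0.5, tested with exact two-sided permutation tests (Python 3.11.15). Of 9 planned ratios, the 3 with Ctla4 had no value at its floor, so adjustment was over 6 ratios and, between groups, over 42 tests. Alternatives were DESeq2 1.42.0, no TMM, all genes with a count, protein-coding genes only, all groups in one fit, a replicate block, control_d10 replicates 1 to 3 or 4 and 5, leaving out each replicate, and for ratios summed markers or no 0.5.

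Replicates of a group differed beyond sampling noise in all 22 pairs (chi-square per gene 18.5 to 268). P-values measure the spread between these mice, which in control_d10 includes the difference between library sets. In that group, chi-square per gene was 169 to 268 between replicates 1 to 3 and replicates 4 and 5. It was 40.4 to 89.8 within each part. Named genes were the members, the 3 protein-coding genes most like each (mean of at least 1 normalized CPM, Pearson r of log2(normalized CPM + 0.5)), up to 2 called genes per direction from each list, and Cd3e, Foxp3 and Csf1r, and 1 list gene that this rule names is not reported here. The members and lists were chosen with earlier results of these data known. Gene lists with no printed result here (CD4 and CD8 T cells, dendritic cells) are given with the other observations. Positions and sequences are from Gencode vM21; protein sequences were not used here.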

Additional observations from a re-analysis of the deposited data

Results flagged for a closer look

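In control_d10, the only group large enough for Dixon's test (5 tumors, critical value 0.71), 2 of 11 measures held a sample far from the others, while chance gives about 1 in 20 groups. For Icosl, replicate 4 lay at 16.9 normalized CPM against 8.62 to 10.8 in the others (gap over range 0.735). For Cd80/Csf1r, replicate 3 lay at a log2 ratio of -2.62 against -3.59 to -3.37 in the others (0.773). In the latter tumor Csf1r was 188 normalized CPM, the lowest of its group, and Cd80 was 30.6.

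The effect of anti-CTLA4 differed between d14 and d10 for Icos (difference of log2 fold changes 1.29, adjusted p = 0.0125) and for Cd28 (0.96, adjusted p = 0.0365), by the interaction term in edgeR. Icos was 1.48 higher in treated tumors on d14 and 0.17 on d10. Cd28 was 0.98 higher on d14 and 0.01 on d10. With control_d10 replicates 4 and 5 alone, the term was 1.13 for Icos (adjusted p = 0.0229) and 0.95 for Cd28 (adjusted p = 0.0608). Leaving out single tumors also took the adjusted p of Cd28 above 0.05 in several cases, with a value of 0.68 without control_d14 replicate 2 (adjusted p = 0.0667).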

How the results depend on the processing

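Members called kept within 1.5 times of the stated number in 110 of 122 alternatives. Between d6 and d10, 1 rather than 2 was called with control_d10 replicates 4 and 5, and 1 to 2 when single replicates were left out. In CTLA4_d14 against control_d14, 2 rather than 1 were called with protein-coding genes only and with the replicate block (Cd28 1.001 and 1.048), and 1 to 2 without single replicates (control_d14 replicate 3 or CTLA4_d14 replicate 3). In CTLA4_d14 against control_d10, 1 rather than 0 was called with control_d10 replicates 4 and 5. For the d14 minus d10 treatment term, 2 rather than 1 were called without TMM and with the replicate block (Cd28 1.01 and 1.02), and 1 to 2 without single replicates (CTLA4_d10 replicate 1, control_d14 replicate 3 or CTLA4_d14 replicate 3). The causes were not tested. Replicate numbers did not pair the mice (deviations of same-numbered tumors correlated at -0.298 to 0.161), so a block has no basis in the design; it changed other members' calls in no comparison. Calls over all genes moved by over 1.5 times under at least 1 alternative in each comparison. They ranged from 0 to 1210 genes (3 as stated) for CTLA4_d10 against control_d10, with 1210 under the block and 223 by DESeq2, from 281 to 2001 (1277) for d14 against d10, with 281 without control_d14 replicate 2, and from 588 to 2361 (1414) for CTLA4_d14 against control_d10. Protein-coding genes alone gave 1995 (3270) for d14 against d6 and 1268 (2042) between treated days, and the others ranged from 810 to 2794 (1257) for d10 against d6, 1172 to 2851 (2072) for treated against untreated on d14 and 1315 to 3172 (2196) for the treatment term.

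Uncalled log2 fold changes near 0 changed sign. Cd80 turned to 0.044 (no TMM) and 0.015 (all genes) for d14 against d6, -0.002 (block and control_d10 replicates 1 to 3) for d14 against d10, -0.001 (all genes) and -0.03 (all groups in one fit) for CTLA4_d14 against control_d14, and -0.069 (block) and -0.068 (replicates 1 to 3) for CTLA4_d14 against control_d10. Cd86 turned to 0.005 (no TMM), 0.11 (block) and 0.12 (replicates 1 to 3) for d10 against d6. Icosl turned to -0.067 (block and replicates 1 to 3) for d10 against d6, -0.21 (replicates 4 and 5) for d14 against d10, -0.16 (replicates 4 and 5) for CTLA4_d14 against control_d10, -0.003 (no TMM) and -0.35 (replicates 4 and 5) for CTLA4_d10 against control_d10, and -0.23 (block) and -0.24 (replicates 1 to 3) for the treatment term. Cd28 turned to -0.013 (no TMM) and -0.011 (block) for CTLA4_d10 against control_d10.

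Without single replicates, the ranges that crossed 0 were -0.22 to 0.056, -0.14 to 0.13, -0.043 to 0.087 and -0.054 to 0.077 for Cd80 (d10 against d6, d14 against d6, CTLA4_d14 against control_d14 and against control_d10), -0.14 to 0.084 for Cd86 (d10 against d6), -0.046 to 0.38, -0.009 to 0.34, -0.048 to 0.24 and -0.15 to 0.26 for Icosl (d14 against d10, treated against untreated on d14, on d10, and their difference), and -0.11 to 0.12 for Cd28 and -0.004 to 0.33 for Icos (CTLA4_d10 against control_d10).

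Across untreated days, Cd80/Csf1r and Cd86/Csf1r passed with summed macrophage markers (d10 minus d6 of -0.44 and -0.37), and ranged from -0.86 to -0.50 and -0.74 to -0.51 without single replicates, passing without control_d10 replicate 3 or control_d14 replicate 3. Cd86/Cd80 ranged from -0.004 to 0.13. With summed markers, d14 minus d6 turned to 0.16 for Cd28/Cd3e and 0.04 for Icos/Cd3e, and CTLA4_d14 minus control_d10 to 0.19 for Cd86/Csf1r. Between groups, 0 ratios passed in any alternative. With control_d10 replicates 1 to 3 or 4 and 5 alone, none could pass, since the smallest exact permutation p was 0.1. Leaving out a tumor of any group other than control_d10 also left too few arrangements for an adjusted p below 0.05. Those alternatives thus could not have shown a difference. No fold was given for Ctla4, at no more than 2 counts per library.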

Other observations

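Dendritic cells carry CD80 and CD86, and 8 of their markers were followed as well. In CTLA4_d14 against control_d14, 2 of 8 rose, against 11.5% of all tested genes called. These were Cd209a (log2 fold change 1.71 ± 0.31) and Ccr7 (1.07 ± 0.28), which guides dendritic cells to lymph nodes. Between treated tumors of d14 and d10, 4 of 8 rose and 0 fell, against 11.5% of all tested genes called. Largest were Cd209a (3.16 ± 0.35) and Flt3 (1.67 ± 0.15), a growth factor receptor of dendritic cells. The median of the 8 markers was 1.07 against 0.04 over all tested genes. Day and library set cannot be told apart between these treated groups. In untreated tumors, 2 of 8 were lower on d14 than on d6 and 0 higher, against 19% of all tested genes called. The median was -0.51 against 0.01. The 2 were Batf3, needed for cross-presenting dendritic cells, which fell by 2.26 ± 0.20, and Ccr7, which fell by 1.66 ± 0.27. Library set also differed between these days.

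Of the T cell subset markers, Cd8a and Cd8b1 were both higher on d10 than on d6, with their sum at 12.1 to 12.4 normalized CPM on d6 and 96.6 to 135 on d10. Cd4 did not pass between these days (-0.39). It fell by 1.59 from d6 to d14, which also differ in library set, to 2.08 to 4.57 normalized CPM. In CTLA4_d14 it was 8.13 to 10.2, higher by 1.50 than in control_d14.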
